A study of Mus musculus with 7 samples.

Results

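Immune cell genes were read in pancreatic islets of mice that lack Wnt4 in β-cells and in islets of their controls. The genes are 34 markers of leukocytes out of 22911 genes that have a named probe on the array, chosen by what each is known to mark: 6 genes of leukocytes in general, 14 of macrophages, 4 of antigen presentation on major histocompatibility complex (MHC) class II, 6 of T cells and 4 of B cells. Of these, 29 had a probe bright enough to be tested. The classes are broad: Tyrobp, in the first, serves myeloid and NK cells, and Cxcl13, in the last, is a chemokine that draws B cells. Gene expression was measured on single-colour Agilent arrays, whose spots are short DNA probes for single transcripts, with 1 array per mouse. The 3 control islet samples came from Wnt4 fl/fl mice without Cre (Pdx1CreER Tg-). The 4 Wnt4βKO samples came from Wnt4 fl/fl mice with a tamoxifen-inducible Cre recombinase under the Pdx1 promoter (Pdx1CreER Tg+), which is active in β-cells of the adult pancreas. Both groups received tamoxifen by gavage at 4 to 5 weeks of age and islets were taken at 7 weeks, so that tamoxifen is shared by the groups and Cre is not. The mice were male and had been crossed to C57BL/6J. Replicates are numbered as in the labels, 2 to 4 in control and 1 to 4 in Wnt4βKO.

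A healthy islet holds a small resident population of macrophages, which lie close to its capillaries, take up secretory granules and dying cells, and present antigen on MHC class II. T cells and B cells are scarce in healthy islets and accumulate in autoimmune diabetes, when lymphocytes gather around and inside the islet. Isolated islets also carry capillary endothelium, remnants of the acinar tissue that surrounds them, and blood, and in bulk RNA fewer cells of a type cannot be told apart from less RNA of its genes in each cell.

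All 7 arrays lay on 1 slide and came from 1 scan, and between 45.5% and 49.0% of their spots were well above background. For Wnt4, the inactivated gene, control islets averaged 11.51 ± 0.31 (SD, n = 3) and Wnt4βKO islets 11.01 ± 0.22 (SD, n = 4) on the log2 scale. The difference was -0.49 ± 0.17 (SE), at an unadjusted limma p of 0.0237 and an adjusted limma p of 0.651, and the groups overlapped. Whether its probe reads the deleted stretch was not determined. Other tissue in the preparations differed between arrays. The mean log2 signal of 28 acinar genes lay between 13.20 and 13.31 in control and between 11.87 and 13.01 in Wnt4βKO islets, lowest in replicate 1 (11.87) and next lowest in replicate 4 (12.23). The mean of 5 erythroid genes was 9.07, 8.20 and 8.34 in control replicates 2 to 4 and 10.10, 9.88, 7.91 and 10.09 in Wnt4βKO replicates 1 to 4. The mean of 14 tested β-cell genes lay between 10.75 and 10.89 in control and between 10.57 and 10.82 in Wnt4βKO islets, although 1 of them, the glucose transporter gene Slc2a2, fell by 1.54 on the log2 scale (adjusted limma p of 0.00697).

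MHC class II genes share a promoter arrangement, the X and Y boxes, which the factors assembled by the transactivator CIITA read. H2-Aa, H2-Ab1 and H2-Eb1 neighbour each other on chromosome 17. The promoters of H2-Aa and H2-Eb1 are shown, since no promoter sequence was available for H2-Ab1 and Cd74. H2-Aa and H2-Eb1 differed in which arrays were high, as described with their values. Each stretch is the 150 bases before the RefSeq start of the gene, read 5′ to 3′ along the gene's strand, in build GRCm38.p6. The H2-Aa stretch is at chr17:34287824-34287973 on the minus strand and the H2-Eb1 stretch at chr17:34305717-34305866 on the plus strand. Capitals mark GCAACT, a part of the X box, and CTGATTGG, the core of the Y box.
H2-Aa: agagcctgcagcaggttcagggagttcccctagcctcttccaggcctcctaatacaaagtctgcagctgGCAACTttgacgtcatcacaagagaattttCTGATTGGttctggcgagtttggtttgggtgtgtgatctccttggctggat
H2-Eb1: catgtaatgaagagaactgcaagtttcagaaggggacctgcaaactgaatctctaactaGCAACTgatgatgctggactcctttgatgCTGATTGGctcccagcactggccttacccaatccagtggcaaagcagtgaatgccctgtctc

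Both stretches hold both motifs in the same order. Searched on both strands of RefSeq windows from 250 bases before to 50 bases after the start, CTGATTGG was in 4.10% of all 32851 promoters and GCAACT in 10.9%, and 0.466% held both; the motifs share no letters in the stretches shown. Among the 22 immune members with a window, CTGATTGG was in H2-Aa and H2-Eb1 and in no other. GCAACT was in H2-Aa, H2-Eb1 and the macrophage member Itgax, or 12.5% of the members' windows. H2-Ab1 and Cd74 had no window, so that the motifs were not searched in them. GAGGAA, a core of sites for the myeloid factor PU.1, was in 9 of 16 windows of pan-leukocyte and macrophage members (56.2%), among them Ptprc, Laptm5, Cd68, Itgam, C1qb, C1qc, Aif1, Ctss and Mrc1, in 4 of 6 windows of T and B cell members (Cd3d, Cd3e, Cd8a and Cd79a) and in 28.3% of all windows. A match of letters is a description and not evidence of binding.

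The first question was whether the immune genes as a group differed between Wnt4βKO and control islets. Of the 29 tested members, 28 had a higher mean in Wnt4βKO islets, where 50.4% of the 26153 tested probes did, and the median log2 fold change was 0.31, against 0.001 over all probes. None passed an adjusted limma p of 0.05, a threshold that 0.0153% of all probes passed, and the lowest adjusted limma p of a member was 0.635. At an unadjusted limma p under 0.05, 1 member was higher (H2-Ab1) and none was lower, while 3.26% of all probes were higher at that threshold. The groups did not overlap, with Wnt4βKO higher, for 2 members (H2-Ab1 and Tyrobp), against 3.45% of all probes. The members' calls were therefore near the background, although their direction was nearly uniform. The members are read on the same arrays and follow each other, so that 28 genes in one direction are not 28 independent observations. Among them H2-Aa, Cd3g, Cd79b and Ms4a1 were each well above background on 1 control array and on 2 or 3 Wnt4βKO arrays. They were bright enough to be tested mainly through the Wnt4βKO group, which favours a higher mean there.

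**Figure D1:**
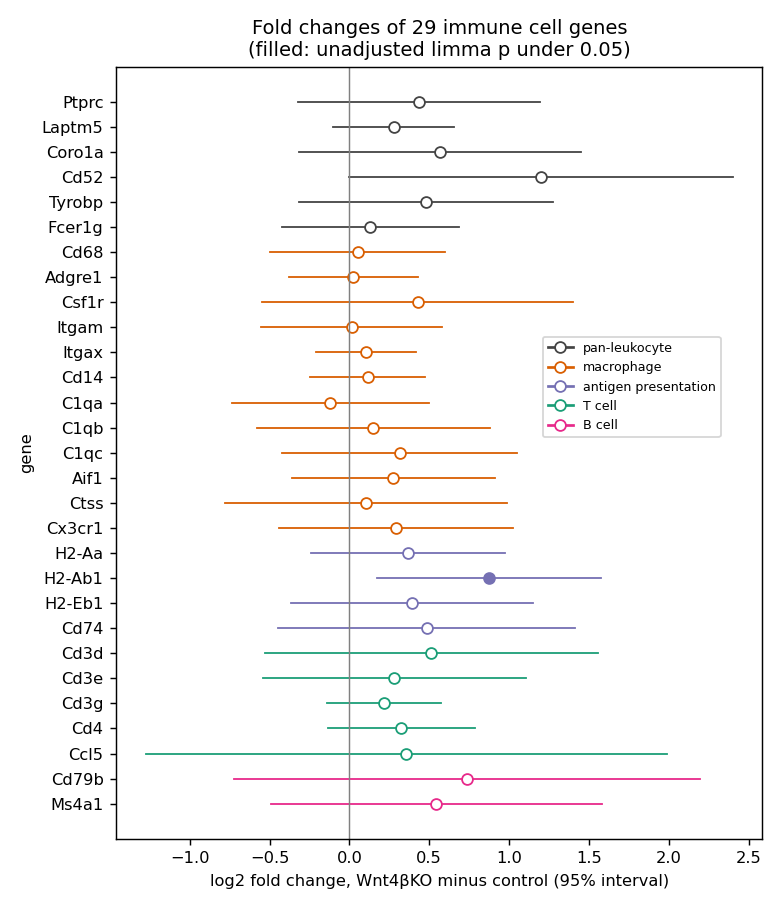
Log2 fold change, Wnt4βKO minus control, of the 29 tested immune genes (x axis), each with its 95% interval from the limma fit; rows are genes in order of class, and a filled point has an unadjusted limma p under 0.05. All points except C1qa lie above 0, and the interval excludes 0 for H2-Ab1 alone.

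The spread between mice is described next, with no test. The median SD within the Wnt4βKO group was 0.62 over the tested members and the median SD within control was 0.20, whereas over all probes the medians were 0.141 and 0.144. The SD was larger in Wnt4βKO than in control for 27 of 29 members and for 48.9% of all probes, and the standard error of the members' fold changes had a median of 0.31, against 0.12 over all probes. Wnt4βKO replicate 4 was the highest of the 7 arrays for 22 of 29 members, against 13.8% of all probes. Wnt4βKO replicate 1 was the lowest for 14 of 29 members, against 17.7% of all probes. The 95% interval of the log2 fold change included 0 for 28 of the 29 members and reached above 1, which is 2-fold, for 15, so that the number of arrays limits what can be said of single genes.

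**Figure D2:**
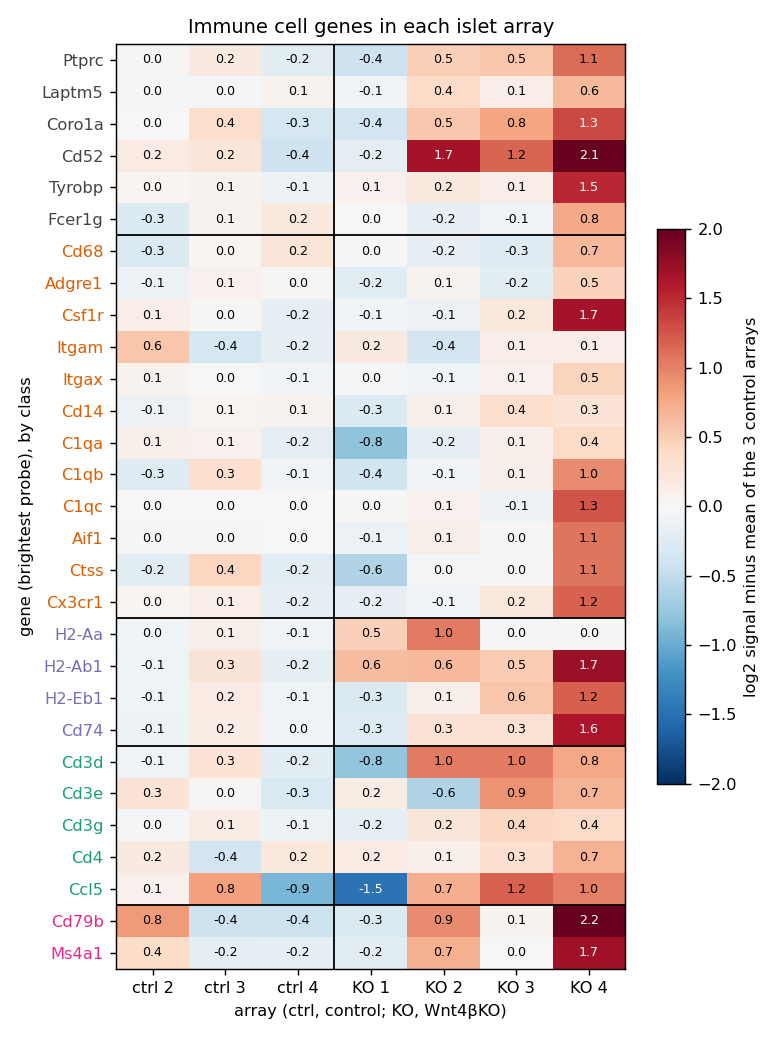
Log2 signal of each tested immune gene in each array, as the difference from the mean of the 3 control arrays; rows are genes grouped by class (pan-leukocyte, macrophage, antigen presentation, T cell, B cell from the top) and columns are arrays. The column of Wnt4βKO replicate 4 is the highest for 22 of the 29 genes, Cd3d and Cd3g are above the controls in replicates 2 and 3 as well, and H2-Aa is high in replicates 1 and 2.

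Genes of leukocytes in general came first. Ptprc, the CD45 phosphatase carried by all nucleated blood cells, had log2 signals of 6.39, 6.54 and 6.15 in control replicates 2 to 4 and of 5.95, 6.85, 6.91 and 7.48 in Wnt4βKO replicates 1 to 4. Coro1a, an actin-binding coronin of leukocytes, had 6.56, 6.91 and 6.21 in control and 6.18, 7.09, 7.35 and 7.89 in Wnt4βKO. Cd52, a small surface glycoprotein of lymphocytes and monocytes, had 7.78, 7.85 and 7.19 in control and 7.42, 9.27, 8.77 and 9.75 in Wnt4βKO. In each of these genes Wnt4βKO replicates 2, 3 and 4 lay above every control array, and replicate 1 lay below the controls for Ptprc and Coro1a and among them for Cd52.

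The largest fold change of any member was that of Cd52, 1.20 ± 0.51 (SE) on the log2 scale (95% interval -0.01 to 2.40), with an unadjusted limma p of 0.0509 and an adjusted limma p of 0.715. Ptprc differed by 0.44 ± 0.32 (SE) and Coro1a by 0.57 ± 0.38 (SE), with adjusted limma p-values of 0.856 and 0.833. Laptm5, a lysosomal membrane protein of blood cells, was dim, between 6.38 and 6.49 in control and between 6.35 and 7.07 in Wnt4βKO, with a fold change of 0.28 ± 0.16 (SE). The 2 signalling adaptors of this class behaved differently. Tyrobp (DAP12), which couples activating receptors of myeloid and NK cells, read 7.46, 7.49 and 7.32 in control and 7.51, 7.61, 7.56 and 8.93 in Wnt4βKO, so that 3 Wnt4βKO arrays lay just above the controls and replicate 4 far above. Fcer1g, the common chain of Fc receptors, read 7.82, 8.16 and 8.29 in control and 8.08, 7.93, 8.02 and 8.85 in Wnt4βKO, where replicate 4 alone lay above the controls. Their log2 fold changes were 0.48 ± 0.34 (SE) and 0.13 ± 0.24 (SE), with adjusted limma p-values of 0.842 and 0.943.

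Macrophage genes were close to control in 3 of the 4 Wnt4βKO mice. Csf1r, the receptor for the growth factor on which tissue macrophages depend, read 8.94, 8.82 and 8.63 in control and 8.75, 8.68, 9.02 and 10.46 in Wnt4βKO. C1qc, a chain of complement C1q made by macrophages, read 7.40, 7.40 and 7.39 in control and 7.42, 7.48, 7.29 and 8.65 in Wnt4βKO. Aif1, the calcium-binding protein IBA1 of macrophages, read 6.78, 6.85 and 6.83 in control and 6.70, 6.93, 6.85 and 7.90 in Wnt4βKO. For these genes the Wnt4βKO replicates 1 to 3 were spread around the controls and replicate 4 stood more than 1 log2 unit above them.

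Replicate 4 was also the highest array for Cx3cr1, the fractalkine receptor (6.99 to 7.30 in control, 8.35 in replicate 4), for C1qb, another C1q chain (6.89 to 7.49, 8.11 in replicate 4), and for Ctss, the protease cathepsin S that trims the invariant chain (9.27 to 9.92, 10.56 in replicate 4). C1qa, the remaining C1q chain, was the one member with a fold change below 0, -0.12 ± 0.26 (SE), with 8.02 in replicate 1 and 9.21 in replicate 4 around controls between 8.63 and 8.92. Cd68, a lysosomal scavenger receptor, Adgre1, an adhesion receptor that marks mature mouse macrophages, and Itgax, which encodes CD11c of dendritic cells and islet macrophages, lay between 6.07 and 7.57 over all arrays and each had its highest value in replicate 4. Their fold changes were 0.05 ± 0.23 (SE), 0.02 ± 0.17 (SE) and 0.10 ± 0.13 (SE). Cd14, the lipopolysaccharide co-receptor, was highest in replicate 3 (6.62) and next in replicate 4 (6.54), with 6.14 to 6.33 in control. Itgam, which encodes CD11b, did not share the order: its bright probe read 10.89, 9.98 and 10.13 in control and 10.52, 9.95, 10.46 and 10.47 in Wnt4βKO, and its dimmer probe was highest in replicate 1 (7.34).

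Over the 12 tested macrophage genes the median log2 fold change was 0.11, 11 were above 0, and the lowest adjusted limma p was 0.889. Without Wnt4βKO replicate 4 the median was -0.02 and 4 of the 12 were above 0. Lyz2, the lysozyme of myeloid cells, was well above background on 1 of 3 control arrays and on no Wnt4βKO array, and Mrc1, the mannose receptor of many tissue macrophages, on none of the 7. These 2 genes were not tested. Of 24 further macrophage and monocyte genes, 13 were tested, 10 were above 0 and 11 had their highest value in Wnt4βKO replicate 4. Among them Lyve1, a receptor of lymphatic endothelium and of some tissue macrophages, was lower (log2 fold change -0.32 ± 0.11, SE), with an unadjusted limma p of 0.0203 and an adjusted limma p of 0.631.

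**Figure D3:**
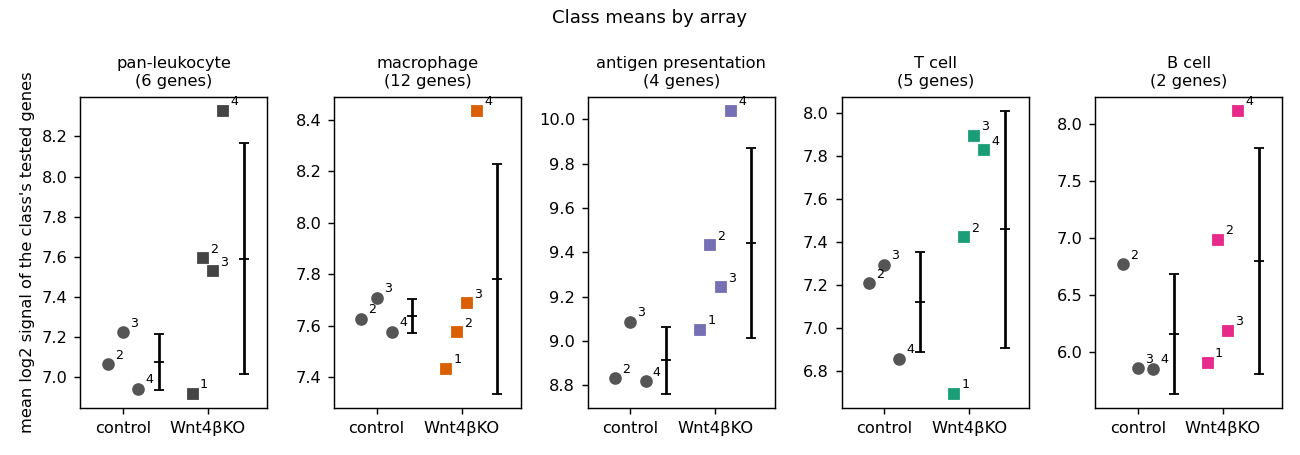
Mean log2 signal over the tested genes of each class (y axis, a separate scale for each panel), with 1 point per array labelled by its replicate number and the group mean ± SD beside the points. Wnt4βKO replicate 4 is the highest array in every class except T cells, where replicate 3 (7.89) and replicate 4 (7.83) are close, and replicate 1 is below the lowest control for pan-leukocyte, macrophage and T cell genes.

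Genes of MHC class II presentation held the single member past an unadjusted limma p of 0.05. H2-Ab1, the β chain of the class II molecule I-A, read 9.93, 10.27 and 9.84 in control and 10.63, 10.66, 10.52 and 11.74 in Wnt4βKO on its brightest probe, so that all 4 Wnt4βKO arrays lay above all controls. The mean was 1.83-fold higher, or 0.87 ± 0.30 (SE) on the log2 scale (95% interval of the log2 fold change 0.17 to 1.58), with an unadjusted limma p of 0.0214 and an adjusted limma p of 0.635. The remaining H2-Ab1 probes gave smaller differences of 0.73, 0.30 and 0.29, with unadjusted limma p-values of 0.0768, 0.498 and 0.270, and on each of them the groups overlapped. On all 4 probes replicate 4 was the highest array, while replicate 1 was above the controls on the probes with the larger differences (0.87 and 0.73) and the lowest of all arrays on the others.

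H2-Eb1, the β chain of the class II molecule I-E, read 9.63, 9.88 and 9.63 in control and 9.43, 9.81, 10.27 and 10.92 in Wnt4βKO. Cd74, the invariant chain that occupies the class II groove until peptide is loaded, read 9.99, 10.24 and 10.04 in control and 9.83, 10.39, 10.38 and 11.71 in Wnt4βKO. In both genes replicate 1 was the lowest array and replicate 4 the highest, with fold changes of 0.39 ± 0.32 (SE) and 0.48 ± 0.40 (SE) and adjusted limma p-values of 0.868 and 0.867. H2-Aa, the α chain that pairs with the product of H2-Ab1, had another order of arrays. Its only probe was well above background on 1 control array and on 2 Wnt4βKO arrays, with 5.79, 5.95 and 5.77 in control and 6.32, 6.87, 5.82 and 5.79 in Wnt4βKO, so that replicates 1 and 2 were high and replicate 4 was not. The promoters of H2-Aa and H2-Eb1 carry the same X box part and Y box core, shown above, and their part in the order of arrays was not tested.

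The arrays that were high for H2-Aa were also the highest for H2-K1 and H2-D1, 2 of the 9 listed genes of class I presentation, a pathway of nearly all nucleated cells. H2-K1, a classical class I heavy chain, read 10.01, 10.15 and 10.45 in control and 11.69, 11.82, 10.46 and 10.85 in Wnt4βKO, which differ by 1.001 ± 0.34 (SE) at an unadjusted limma p of 0.0199 and an adjusted limma p of 0.630. H2-D1, the other classical heavy chain, was chosen after its values were seen. It read 6.02, 6.01 and 5.89 in control and 9.81, 10.002, 6.29 and 6.11 in Wnt4βKO, so that replicates 1 and 2 stood more than 3 log2 units above the other five arrays. The remaining class I genes did not set these arrays apart; Psmb8, a subunit of the immunoproteasome, was lowest in replicate 1 (7.63). Of the 9 class I genes, 9 were tested and 9 had a fold change above 0, with a median of 0.18. H2-DMb1, a listed class II partner too dim to be tested and named after its values were seen, was also highest in replicates 1 and 2. It read 5.73, 5.77 and 5.79 in control and 6.28, 6.49, 5.82 and 5.81 in Wnt4βKO. MHC genes vary between mouse strains, and the labels give no MHC haplotype. The match of the probes to the alleles of each mouse was not determined. The values of H2-Aa, H2-Ab1, H2-Eb1, H2-DMb1, H2-K1 and H2-D1 are therefore differences in probe signal and may not be differences in expression. Without Wnt4βKO replicates 1 and 2, H2-Aa differed by -0.03, H2-Ab1 by 1.11 and H2-Eb1 by 0.86, with unadjusted limma p-values of 0.760, 0.0278 and 0.00799. These arrays were left out after their MHC values were seen, so that the p-values are a description and no support. None of these genes passed an adjusted limma p of 0.05 in that fit.

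Of 15 listed partners of class II presentation, 10 were tested and 6 were above 0. Cd83, which marks mature dendritic cells and activated B cells, was higher by 0.53 ± 0.22 (SE), with an unadjusted limma p of 0.0454 and an adjusted limma p of 0.699. Ciita, the class II transactivator, also named after its values were seen, read 6.57, 6.19 and 6.37 in control and 6.21, 6.69, 6.75 and 8.14 in Wnt4βKO, with replicate 4 far above the rest. In 4 tested dendritic cell genes all fold changes were above 0, with a median of 0.06 and no unadjusted limma p under 0.05.

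**Figure D4:**
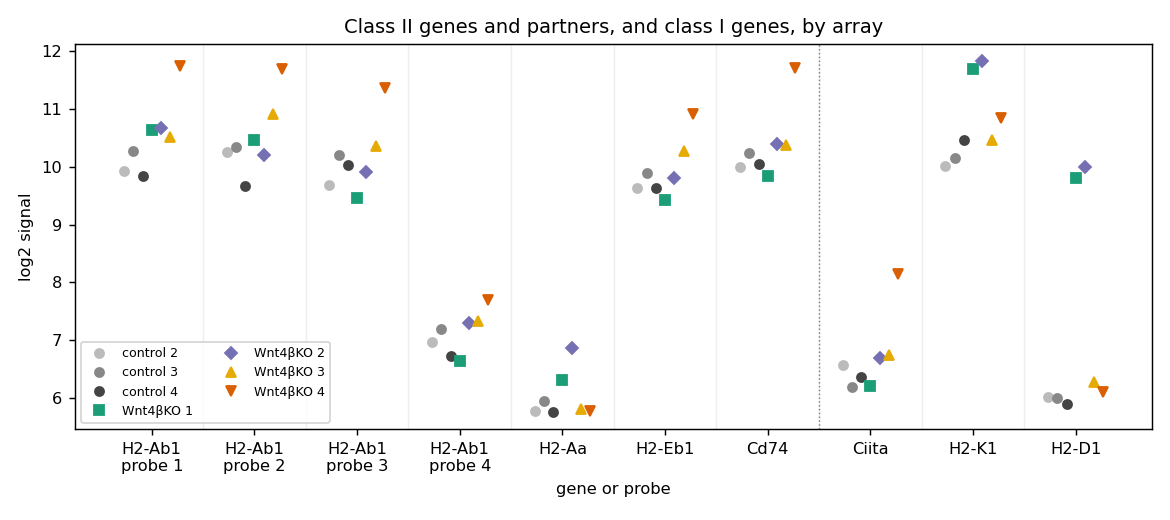
Log2 signal (y axis) of the 4 H2-Ab1 probes, H2-Aa, H2-Eb1 and Cd74 and, right of the dotted line, of Ciita and the class I genes H2-K1 and H2-D1, with 1 symbol per array. Wnt4βKO replicate 4 is the highest array on all H2-Ab1 probes and for H2-Eb1, Cd74 and Ciita, whereas replicates 1 and 2 are the highest for H2-Aa, H2-K1 and H2-D1.

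T cell genes did not all follow the order of the macrophage genes. Cd3d, a chain of the CD3 complex through which the T cell receptor signals, read 6.63, 6.97 and 6.49 in control and 5.90, 7.74, 7.73 and 7.47 in Wnt4βKO. Its second probe read 5.95, 6.41 and 5.81 in control and 5.94, 7.14, 7.16 and 6.74 in Wnt4βKO. On both probes replicates 2, 3 and 4 lay above every control and replicate 1 did not, and the log2 fold changes were 0.51 ± 0.44 (SE) and 0.69 ± 0.31 (SE), with unadjusted limma p-values of 0.285 and 0.0590.

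Ccl5, a chemokine made by activated T cells and NK cells, read 7.49, 8.22 and 6.49 in control and 5.93, 8.13, 8.57 and 8.41 in Wnt4βKO, the largest SD of any tested member within control (0.87) and within Wnt4βKO (1.24), with a fold change of 0.36 ± 0.70 (SE). Cd3g, the CD3 γ chain, was near background, at 5.82 to 6.06 in control and 5.74, 6.16, 6.33 and 6.29 in Wnt4βKO, with a fold change of 0.22 ± 0.15 (SE). Cd4, the co-receptor of helper T cells, was highest in replicate 4 (7.62) and differed by 0.33 ± 0.20 (SE). Cd3e, the CD3 ε chain, had 2 probes that disagreed: the brighter read 8.94, 8.69 and 8.36 in control and 8.82, 8.06, 9.56 and 9.34 in Wnt4βKO, a fold change of 0.28 ± 0.35 (SE), and the dimmer gave -0.10 ± 0.09 (SE). Replicate 2, which was above the controls for Cd3d and Cd3g, was the lowest of the 7 arrays on the brighter Cd3e probe.

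Cd8a, the co-receptor of cytotoxic T cells, was well above background on 1 Wnt4βKO array and on no control array and was not tested. Of 23 further T and NK cell genes 14 were tested, 12 were above 0 with a median of 0.36, and none passed an unadjusted limma p of 0.05. Among those 14, Wnt4βKO replicate 1 was the lowest array for 9 and replicate 4 the highest for 3, whereas among the 12 macrophage members replicate 4 was the highest for 10.

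B cell genes were detected in some mice of each group. Cd79b was well above background on 1 control array and 3 Wnt4βKO arrays, and Ms4a1 on 1 and 2. Cd79b, a signalling chain of the B cell receptor, read 7.19, 5.92 and 5.91 in control and 6.04, 7.28, 6.40 and 8.57 in Wnt4βKO. Ms4a1, which encodes CD20 of B cells, read 6.35, 5.80 and 5.79 in control and 5.77, 6.69, 5.97 and 7.67 in Wnt4βKO. In both genes Wnt4βKO replicate 4 was highest, followed by Wnt4βKO replicate 2 and control replicate 2, so that a control mouse was among the higher arrays. The log2 fold changes were 0.74 ± 0.62 (SE) and 0.54 ± 0.44 (SE), with adjusted limma p-values of 0.872 and 0.866.

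Cd79a, the partner of Cd79b, was well above background on 2 Wnt4βKO arrays and on no control array, at 5.82 to 6.11 in Wnt4βKO. Cxcl13, a chemokine that draws B cells into follicles, was well above background on 1 control array and no Wnt4βKO array. Neither was tested. Cd79a read 5.86, 5.87 and 5.89 in control, and Wnt4βKO replicates 1 and 3 (5.83 and 5.82) lay below all of these. Cxcl13 read 5.83, 6.26 and 5.84 in control, so that control replicate 3 alone stood out. No direction is given for either gene. Of 16 further B cell and plasma cell genes 12 were tested, 11 were above 0 with a median of 0.31, and replicate 4 was the highest array for 11. In the lymphoid stroma list, genes of the cells that organise lymphoid tissue, 1 of 4 tested genes was above 0.

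Genes that respond to inflammation completed the account. Of 17 chemokines and inflammatory cytokines 6 were tested, 5 of them above 0, and Csf1, the ligand of the receptor encoded by Csf1r, was higher by 0.29 ± 0.09 (SE) with an unadjusted limma p of 0.0171 and an adjusted limma p of 0.623. Of 18 interferon response genes 12 were tested and 11 were above 0; Stat2, a transcription factor of the type I interferon pathway, was higher by 0.26 ± 0.09 (SE), and Usp18, which restrains that pathway, was lower at -0.47 ± 0.19 (SE), with adjusted limma p-values of 0.630 and 0.689. Of 7 mast cell genes 2 were bright enough to be tested. Hdc, the histamine-forming enzyme of mast cells and of some other cells, was higher by 0.32 ± 0.10 (SE), with an adjusted limma p of 0.623. Of 3 tested neutrophil genes none passed an unadjusted limma p of 0.05. Over the 11 further immune lists together, 89 genes were tested, 73 were above 0 with a median of 0.16, 6 were higher and 2 lower at an unadjusted limma p under 0.05 (3.26% of all probes were higher and 3.76% lower), and none passed the adjusted threshold.

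The class medians depended on single mice, and the B cell median rests on Cd79b and Ms4a1 alone, both detected mainly in Wnt4βKO islets. Over all arrays the median log2 fold change was 0.46 in pan-leukocyte, 0.11 in macrophage, 0.44 in antigen presentation, 0.33 in T cell and 0.64 in B cell genes. Without Wnt4βKO replicate 4 these became 0.18, -0.02, 0.32, 0.17 and 0.21, and 20 of 29 members stayed above 0, where 50.5% of all probes were, with 1 member (H2-Ab1) higher at an unadjusted limma p under 0.05, against 2.68% of all probes. Without replicate 1 they became 0.65, 0.29, 0.67, 0.38 and 0.93. In that fit 8 of 29 members (Ptprc, Laptm5, Coro1a, Cd52, Cd14, H2-Ab1, Cd3d and Cd3g) were higher at an unadjusted limma p under 0.05, against 2.83% of all probes, and 10 did not overlap, against 5.18%. Wnt4βKO replicates 1 and 2 stood apart at H2-K1 and H2-D1 and were left out together after the data were seen. In that fit 9 members were higher at the unadjusted threshold, against 3.95% of all probes, and 18 did not overlap, against 12.1%. Leaving out control replicate 2 or control replicate 4 left no member under an unadjusted limma p of 0.05. In no setting did a member pass the adjusted threshold.

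**Figure D5:**
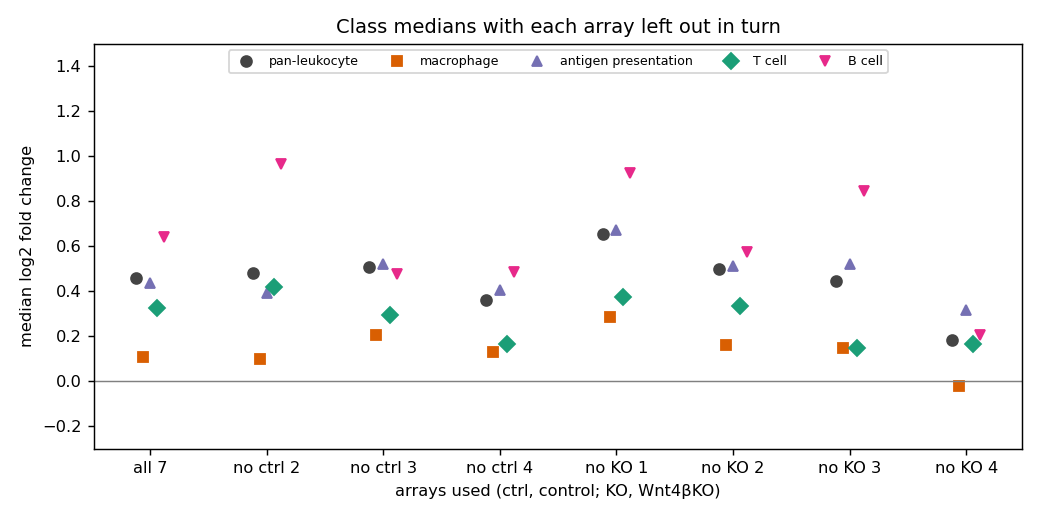
Median log2 fold change of the tested genes of each class (y axis) with all 7 arrays and with each array left out in turn (x axis); each symbol is a class. The medians are lower without Wnt4βKO replicate 4 (-0.02 for macrophage genes) and higher without Wnt4βKO replicate 1 (0.65 for pan-leukocyte genes).

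The arrays that were high or low for immune genes also differed in other tissue. Wnt4βKO replicate 4 had the second lowest acinar mean (12.23), one of the higher erythroid means (10.09) and the highest endothelial and mesenchymal means (8.02 and 8.08, against 7.50 to 7.86 and 7.11 to 8.05 in control). Wnt4βKO replicate 1 had the lowest acinar mean (11.87), the highest erythroid mean (10.10) and the lowest endothelial and mesenchymal means (7.33 and 6.99). Of the 28 acinar genes 10 were lower and none was higher in Wnt4βKO at an unadjusted limma p under 0.05, against 3.76% of all probes lower, and of the 13 endothelial and 13 mesenchymal genes none passed. With the acinar mean as a covariate Cd52 and Cd3d passed an unadjusted limma p of 0.05, at 0.0312 and 0.00750, and H2-Ab1 no longer did, with a log2 difference of 0.58 ± 0.44 (SE) and an unadjusted limma p of 0.234. The acinar mean was at most 13.01 in Wnt4βKO and at least 13.20 in control, so that this covariate and the genotype cannot be fully told apart. The part of these tissues in the immune signal was not tested. The arrays lay in 2 rows of the slide, with control replicate 4 and Wnt4βKO replicates 1 and 2 in one row and the remaining arrays in the other; the median log2 fold change over the tested members was 0.08 within the first row and 0.61 within the second, each row holding too few arrays to separate it from the mice in it.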

How the data were processed

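Islet RNA of 3 control and 4 Wnt4βKO mice was hybridised by the authors, 1 Cy3-labelled sample per array; per the study's methods 1 control array had been left out on quality. The authors deposited scanner spot intensity values on a linear scale, not normalized between arrays. As in the study's methods, background was corrected by normexp (offset 50), here on the median spot signal, followed by quantile normalization. The 3671 control spots were left out and repeated spots averaged. A probe was tested if 3 or more of 7 arrays had it well above background (26153 of 56605), with limma 3.58.1 in R 4.3.3 (two-sided, Benjamini-Hochberg adjustment over all tested probes), after a check on simulated data. Probes were named through RefSeq (GRCm38.p6) for 58.3% of them, and the brightest probe stood for a gene. Members and lists were chosen with earlier results of these data known. Named genes were all members, Wnt4, and at most 3 genes per immune list at the lowest unadjusted limma p under 0.05; 1 gene that this rule names is not reported here. Alternatives covered background correction, scaling, the dim-probe filter, variance model, array weights, blocks, a covariate and left-out arrays. The deposited log2 value table was not used, since 2 of its 7 columns were closest to their own array. Probe coordinates were not used.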

Additional observations from a re-analysis of the deposited data

Results flagged for a closer look

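Among the 4 Wnt4βKO arrays, 1 array lay far from the other 3 for 7 of the 29 tested immune genes and for none of the 5 class means, where chance alone flags about 1 in 20 (1.45 of 29). The measure is the gap of the extreme array to its nearest neighbour as a share of the group's range, set against Dixon's critical value for 4 arrays. Wnt4βKO replicate 4 was the outlying, highest array for Tyrobp (0.931), Fcer1g (0.843), C1qc (0.862) and H2-Ab1 (0.881). Wnt4βKO replicate 1 was the outlying, lowest array for Cd3d (0.851) and Ccl5 (0.831). Wnt4βKO replicate 2 was the outlying, lowest array for Itgam (0.898). The genes share arrays, so that these are not independent events. The share of all tested probes that this rule flags was not computed. The count of 7 therefore has no background beyond the nominal 1 in 20.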

How the results depend on the processing

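Of the main values, 4 probes passed the adjusted threshold, 1 immune gene passed an unadjusted limma p of 0.05 and 2 immune genes did not overlap. The unadjusted count became 2 with uncorrected background, a normexp offset of 0, the scanner's processed signal (75th percentile scaling), median scaling, all 7 arrays above background, a trended robust variance, array weights or the acinar covariate, 3 with the slide row as a block and 8 within slide row 2. The count without overlap became 1 with cyclic loess or the mean over probes, 0 with median scaling, 11 within slide row 1 (8 higher and 3 lower, against a single control array) and 18 within row 2 (all higher). The probes called became 7 with the processed signal, 2 with the acinar covariate, the mean over probes or within slide row 2, and 0 within row 1. The B cell median became 1.51 with an offset of 0 and 2.44 with the processed signal, and had no value with all 7 arrays above background, which left no tested B cell gene. The antigen presentation median was 0.88 within slide row 2. The share of all probes was not computed for the settings by slide row. The counts of 3 and 8 at the unadjusted threshold and of 11 and 18 without overlap therefore have no background. Separation without overlap is more common with fewer arrays. With Wnt4βKO higher it held for 3.45% of all probes over 7 arrays and for 12.1% without Wnt4βKO replicates 1 and 2. Without Wnt4βKO replicates 1 and 2, chosen after the data were seen, the counts were 2 probes called, 9 and 18, with medians of 0.90 for antigen presentation and 0.78 for T cell genes. Leaving out 1 array gave 2 to 5 probes called, 0 to 8 immune genes at the unadjusted threshold and 2 to 10 without overlap. With the replicate block over replicates 2, 3 and 4 the counts were 2, 9 and 10, and without the block on the same arrays 8 immune genes passed and 10 did not overlap (also chosen after the data were seen). These arrays are those of the fit without Wnt4βKO replicate 1. In that fit 2.83% of all probes were higher at the unadjusted threshold and 5.18% did not overlap with Wnt4βKO higher. Whether the numbers pair the arrays was not settled. Same-numbered deviations correlated at -0.13, 0.23 and -0.01 in replicates 2, 3 and 4. The highest correlations with another number were 0.09, 0.02 and 0.16. The causes were not tested.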
